A study of Rattus norvegicus with 20 samples.

Results

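Endothelial cells line every vessel of a muscle, and they hold leukocytes to the vessel wall and seal themselves to their neighbours with a small set of surface proteins. A set of 10 genes for such proteins was followed here in gastrocnemius muscle: Selp for capture of passing leukocytes, Icam1, Icam2 and Vcam1 for firm adhesion, Pecam1 and Cdh5 at the contacts between cells, Cldn5, Esam and Jam2 at tight junctions, and Tjp1 for the scaffold beneath them. The members were taken by gene symbol from the deposited table, which named 32495 genes. Of the 10 members, 9 were found by their symbol, and Pecam1 was not analysed here. All 9 passed the filter on low counts, as did 11716 genes in all.

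The muscle came from female Fischer 344 rats, all of which carried a Ward colorectal carcinoma that had grown for 2 weeks before treatment. TUMOUR STD animals received no chemotherapy and ate a standard diet (5 libraries). CHEMO STD animals ate the same diet and received 2 cycles of CPT-11 (irinotecan) and 5-fluorouracil (7 libraries), and CHEMO FO animals received the same cycles but were switched to a diet with fish oil, a source of EPA and DHA, when chemotherapy began (8 libraries). Muscle was taken 7 days after the last cycle, and the age of the animals is given without a unit in the sources used here. No group was free of tumour and none received fish oil without chemotherapy, so the comparisons are the chemotherapy effect on the standard diet, the diet effect under chemotherapy, and both together against tumour alone. The libraries CHEMO STD 1 and 2 differed far less than any other pair of a group (chi-square per gene 2.23, against 13.7 to 255 in the 58 other pairs), and their counts were summed into 1 sample, which left 19 samples.

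Leukocytes leave the blood in steps. Selectins such as P-selectin slow them to a roll, integrins on the leukocyte then bind ICAM and VCAM proteins and halt it, and the cell passes between endothelial cells through the junctions that cadherins, claudins and junctional adhesion molecules hold together. Selp, Icam1 and Vcam1 are known as inducible genes of activated endothelium, whereas Cdh5, Cldn5, Esam, Icam2 and Jam2 are expressed in resting vessels. Members of the set, Tjp1 and Jam2 among them, are also made by other cells, so a muscle lysate does not give them for endothelium alone.

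Levels below are counts per 1000000 (CPM) on TMM library sizes, a scaling that corrects each library total for its composition. Counts on named genes ran from 3020821 to 10857477 per library. At this depth Selp rested on 2 to 65 counts in 18 of the 19 samples, Vcam1 on 8 to 56, and Cdh5 on 111 to 893, so the junction genes were measured more precisely than the inducible ones. The labelled tissue held its markers: the 7 muscle fibre genes with values (among them Acta1, Ckm and Myh4) summed to between 121556 and 244170 CPM. The 24 pan-endothelial markers (among them Tek, Kdr and Ptprb) summed to between 495 and 734 CPM. Fewer endothelial cells and less RNA per cell cannot be told apart in such bulk samples.

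A group of 4 libraries stood apart in marker genes, and each touches a result. TUMOUR STD 10 and CHEMO FO 16 held skin keratinocyte genes (590 and 121 summed CPM, against 8.07 at most elsewhere). CHEMO STD 7 held leukocyte genes (296 summed CPM over 9 pan-leukocyte markers, against 62.9 to 90.4 in the other CHEMO STD samples). CHEMO FO 18 had the lowest muscle fibre sum of its group, with all 7 genes below the other 7 CHEMO FO samples. The main results that rest on them are given with and without them. The summed sample CHEMO STD 1+2, not among these 4 libraries, stood high in its venular sum. Its 7 venular endothelial markers summed to 132 CPM, against 60.9 to 75.7 in the other CHEMO STD samples. Vwf alone made up 86.6 CPM of the 132. CHEMO STD 1+2 also held the highest CHEMO STD values of Selp, Icam2, Cdh5, Cldn5 and Esam. Without it the Selp log2 fold change for the diet effect was 1.85.

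The stretches before the start of Icam1 and Vcam1 are shown because both genes stood high in the same CHEMO STD library, Vcam1 by far the more. Both are the 250 bases before the RefSeq start in build GRCr8, which is not the build of the deposited counts, and RefSeq sequences were found for 5 of the members. Icam1 lies on the plus strand at chr8:27829595-27829844 and Vcam1 on the minus strand at chr2:206742784-206743033. Capitals mark letters that match a pattern of NF-kB sites (GGGA and CC with any 4 bases between them) or TATAAA, the TATA box, on either strand.
Icam1: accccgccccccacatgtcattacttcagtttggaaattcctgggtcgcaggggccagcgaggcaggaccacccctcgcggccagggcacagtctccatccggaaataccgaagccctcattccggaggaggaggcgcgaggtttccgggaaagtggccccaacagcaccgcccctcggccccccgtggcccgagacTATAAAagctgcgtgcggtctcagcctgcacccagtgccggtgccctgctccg
Vcam1: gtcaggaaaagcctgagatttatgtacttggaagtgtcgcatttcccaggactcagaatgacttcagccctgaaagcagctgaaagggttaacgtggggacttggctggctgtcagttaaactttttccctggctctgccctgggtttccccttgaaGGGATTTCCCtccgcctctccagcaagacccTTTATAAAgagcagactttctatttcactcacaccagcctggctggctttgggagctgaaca
The Vcam1 stretch holds the NF-kB letters at -93 to -84, a run that matches on both strands. Downstream it holds overlapping TATA box letters, which match once on each strand from -62 to -55. The Icam1 stretch holds the TATA box letters at -53 to -48, and that of Jam2, not printed, holds the NF-kB letters on the minus strand at -182 to -173 and at -72 to -63. Among 33469 RefSeq promoters of the same length, 16.4% held the NF-kB letters and 12.9% the TATA box letters. The other patterns searched, TGANTCA for AP-1 (6.34% of promoters) and CAGGAAG for ETS factors (10.2%), had no match in the stretches of Icam1, Vcam1, Cldn5, Jam2 or Tjp1. A match is a description of the letters only, and a stretch without one may hold sites that the pattern does not cover.

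Each comparison was fitted over all genes with edgeR's quasi-likelihood test, and calls needed both an unadjusted p under 0.05 and a difference of 1.5-fold or more. For the chemotherapy effect, 0 of the 9 members were called, against 2.38% of all genes tested. At p below 0.05 without the fold threshold there was 1 member, Cdh5, and DESeq2 and limma voom also called 0. For the diet effect 1 member was called, Selp, against 1.66% of all genes. For CHEMO FO versus TUMOUR STD Selp was again the 1 member called, against 3.6% of all genes. Both counts rest on this single gene. After Benjamini-Hochberg adjustment over all 11716 genes in edgeR, no gene passed 0.05 in any comparison, where 762, 528 and 1059 genes had an unadjusted p below 0.05. DESeq2 on all samples gave 12 adjusted calls for CHEMO FO versus TUMOUR STD, and on only the 2 conditions it gave 16 for CHEMO STD versus TUMOUR STD and 5 for CHEMO FO versus TUMOUR STD. No member was among them, since the smallest adjusted p of a member over all alternatives was 0.233.

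**Figure D1:**
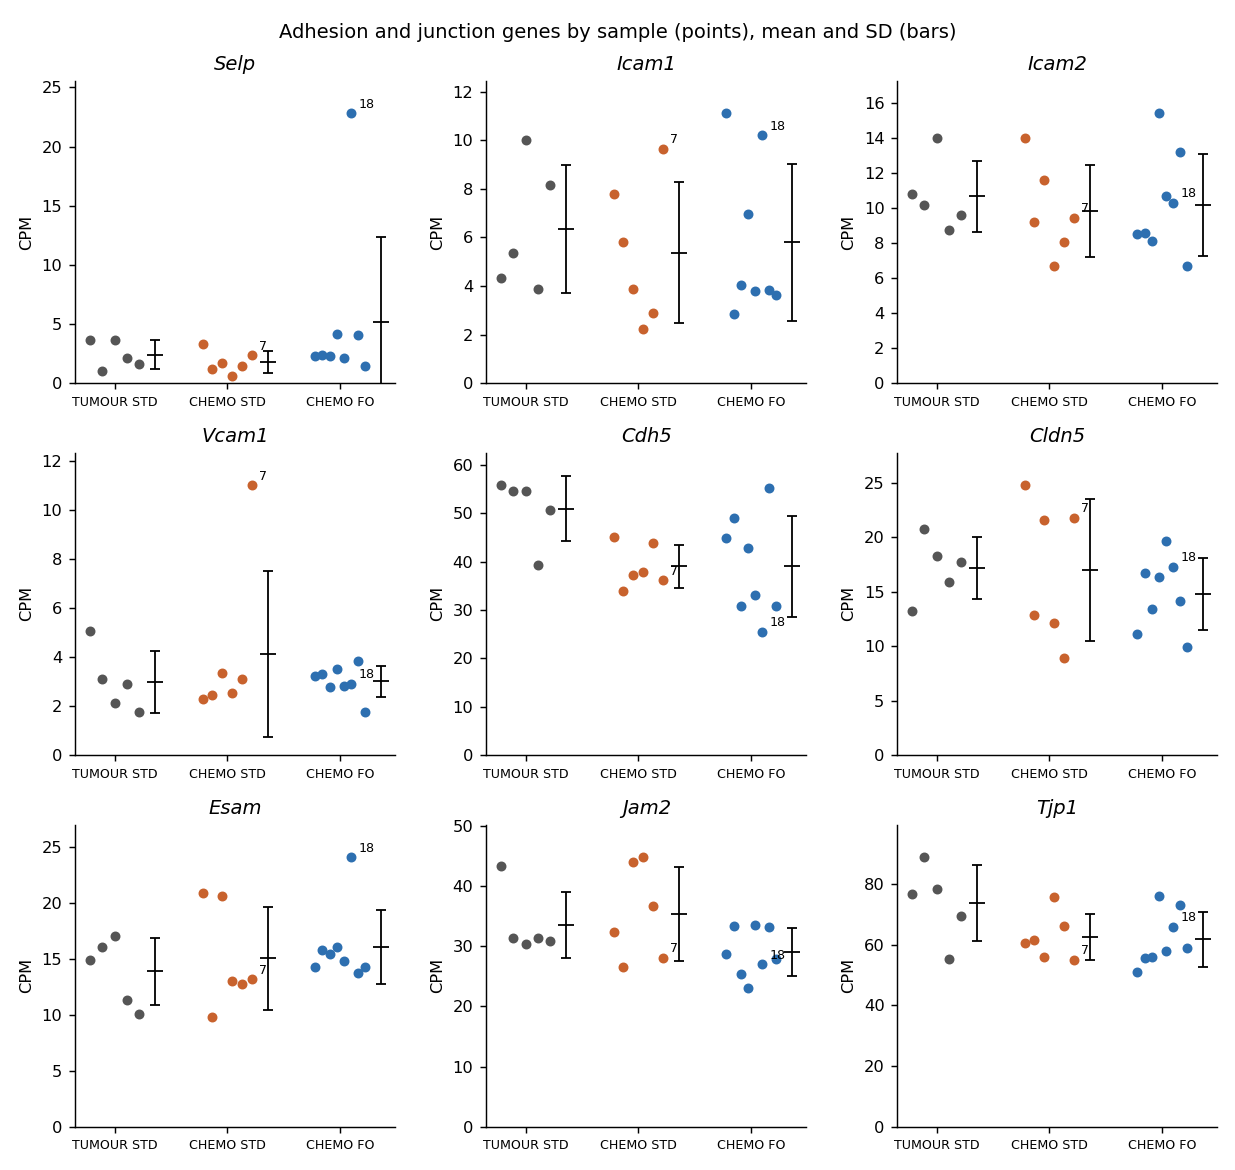
CPM of the 9 adhesion and junction genes (linear vertical axes from 0) in TUMOUR STD (5 samples), CHEMO STD (6) and CHEMO FO (8), 1 point per sample, with the mean and SD beside each group (the lower end of the CHEMO FO bar for Selp is cut off at 0). CHEMO FO 18 at 22.8 CPM lies far above the other Selp values and CHEMO STD 7 at 11 CPM far above the other Vcam1 values, while the junction genes spread more evenly.

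Selp, which encodes the P-selectin that captures leukocytes on activated vessels, had the largest fold change of the set, and it rested on a single animal. TUMOUR STD samples held 3.65, 0.995, 3.69, 2.1 and 1.6 CPM. CHEMO STD samples ran from 0.636 to 3.28 CPM with a median of 1.57, and CHEMO FO samples from 1.47 to 22.8 CPM with a median of 2.38. The top of that range was CHEMO FO 18, and the next CHEMO FO samples stood at 4.19 and 4.08 CPM. These 3 lay above every CHEMO STD and TUMOUR STD sample, and the other 5 lay within the range of TUMOUR STD. In CHEMO FO 18 Selp had 251 counts (22.8 CPM, exact 95% binomial interval 20.1 to 25.8), which is 9.74 times the median of the other 7 CHEMO FO samples. The depth of that library was 9119394 counts, and the interval lies above the value of every other sample.

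For the diet effect the Selp log2 fold change was 1.5 ± 0.565 (SE, 95% interval 0.33 to 2.67, adjusted p = 0.974 in edgeR). Unadjusted, edgeR gave p = 0.0142, while an exact permutation of the group labels over 3003 arrangements (two-sided, on the difference of mean log2 CPM) gave p = 0.0526. Without CHEMO FO 18 the log2 fold change was 0.42, and the call was lost. It was also lost with DESeq2 on only the 2 conditions (0.42), with limma voom and sample quality weights (0.57) and without the 4 libraries that stand apart (0.34). Still, 7 of 8 CHEMO FO samples lay above the CHEMO STD median, and the mean without CHEMO FO 18 was 2.7 ± 1.03 CPM (SD, n = 7), beside 1.77 ± 0.93 in CHEMO STD (n = 6).

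Against TUMOUR STD, Selp in CHEMO FO had a log2 fold change of 1.21 ± 0.581 (adjusted p = 0.551 in edgeR), and 0.13 without CHEMO FO 18. Its unadjusted edgeR p = 0.0496 stood beside an exact permutation p = 0.326 over 1287 arrangements. This call lay at the edge of the threshold and was lost when any of 10 samples was left out: TUMOUR STD 9, 11 or 12, CHEMO STD 3, 4, 5, 6 or 7, or CHEMO FO 16 or 18. For the chemotherapy effect the Selp log2 fold change was -0.30 ± 0.643 (adjusted p = 0.914 in edgeR), with an interval from -1.63 to 1.03 that leaves room for a change of 2-fold either way.

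Platelets also store P-selectin, and their markers were low. The 9 platelet and megakaryocyte genes summed to between 1.92 and 6.99 CPM over all samples, and only Pf4 passed the filter. Of the 9, 5 had no count in any CHEMO FO sample, 3 none in TUMOUR STD and 4 none in CHEMO STD. With so few counts these genes cannot measure platelet content. In CHEMO FO 18 none of them lay above the other CHEMO FO samples. Sele, the related E-selectin of activated endothelium, was at 3.27 CPM in that library, against 0 to 1.17 CPM in the other CHEMO FO samples. Esam, was the other member that lay highest there, while Cdh5 lay lowest. Of the 24 pan-endothelial markers, 3 lay above and 4 below the other CHEMO FO samples in that library. Of the 7 lymphatic markers 2 were far above, Lyve1 (80.2 CPM, others 11.4 to 23.5) and Pdpn (67.1 CPM, others 6.55 to 11.2). The 1 below was Prox1, the regulator of lymphatic identity (4.18 CPM, others 5.35 to 11.9), and 4 lay within the range of the others. Of 11 NF-kB-dependent activation genes with counts, 5 were above, among them the chemokines Ccl2 (6.91 CPM, others 0.586 to 2.44) and Cxcl1 (3.54 CPM, others 0 to 0.586), and 1 was below. Of the 12 leukocyte-side partners 4 were above, among them Itgam, a chain of Mac-1 (18.4 CPM, others 4.28 to 8.64), and Itgb1 (406 CPM, others 183 to 250). The level of Itgb1 alone does not measure leukocytes, as its value in CHEMO STD 7 below shows. The 1 partner below the other samples was Itga4, an integrin chain that binds Vcam1, at 6.63 CPM against 48.3 to 77.3. Of the 9 pan-leukocyte markers 2 were above and 0 below, and 7 of the 10 pericyte and smooth muscle markers were below. The part of these shifts in the Selp value was not tested.

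**Figure D2:**
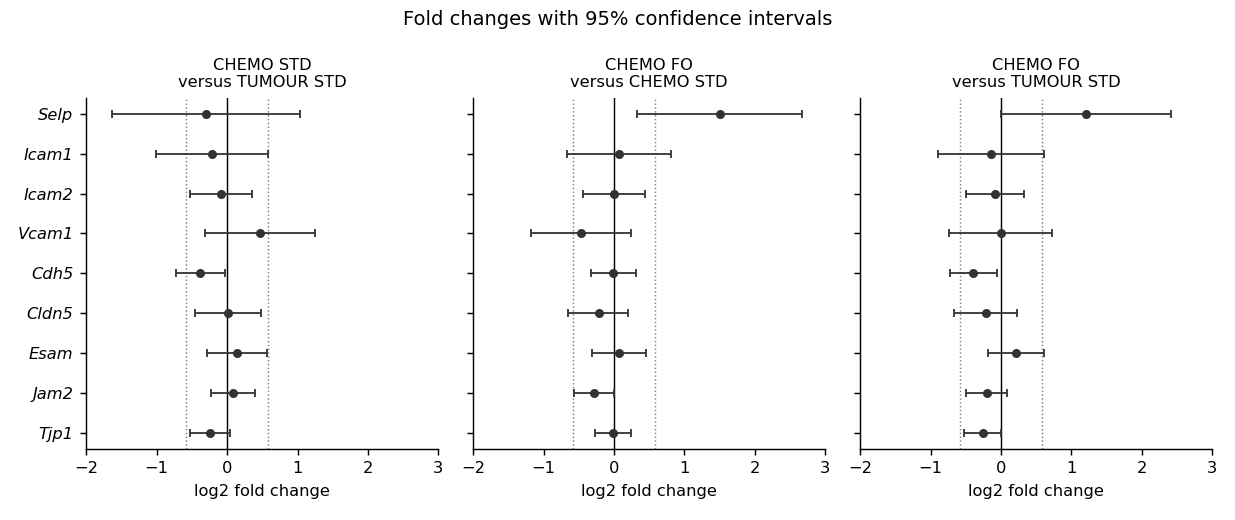
Log2 fold changes of the 9 genes (points) with 95% confidence intervals (bars) from edgeR in the 3 comparisons, with the solid line at no change and dotted lines at 1.5-fold either way. The interval of Selp lies above 0 for the diet effect (0.33 to 2.67), those of Cdh5 lie below 0 in both comparisons with TUMOUR STD, and most others cross 0.

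Vcam1, a firm adhesion gene whose protein binds integrin alpha-4 on lymphocytes and monocytes, was uneven in CHEMO STD through 1 library. TUMOUR STD samples held 5.04, 3.08, 2.14, 2.91 and 1.77 CPM. CHEMO STD samples ran from 2.27 to 11 CPM with a median of 2.82, and CHEMO FO samples from 1.74 to 3.84 CPM with a median of 3.06. The value of 11 CPM was CHEMO STD 7 (56 counts, exact 95% interval 8.32 to 14.3), and no other CHEMO STD sample exceeded 3.36 CPM. The chemotherapy log2 fold change was 0.47 ± 0.377 (adjusted p = 0.757 in edgeR), and -0.11 without CHEMO STD 7. The diet log2 fold change was -0.47 ± 0.344 (adjusted p = 0.974 in edgeR), and 0.10 without that sample. With CHEMO STD 7 set aside, the 3 groups thus held Vcam1 at means of 2.99, 2.75 and 3.01 CPM.

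In CHEMO STD 7 the leukocyte side of these contacts was high as well. Of the 12 leukocyte-side partners, 7 lay above all other CHEMO STD samples, among them Itgal, the chain of LFA-1 that binds ICAM proteins (14.6 CPM, others 0.612 to 1.65). Itga4, the partner of Vcam1, was at 83.8 CPM, within the range of the others (52 to 85.1). Itgb1 was at 217 CPM, also within the range of the others (215 to 272). Of the 9 pan-leukocyte markers 8 lay above, with Ptprc at 65.9 CPM against 10.1 to 17.4. The lymphatic chemokine Ccl21 was at 62.6 CPM against 5.4 to 29.7. Of 11 NF-kB-dependent activation genes with counts 6 lay above, and of the 24 pan-endothelial markers 2 lay above and 5 below. The part of leukocytes or lymphoid tissue in the Vcam1 value was not tested.

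Icam1, the inducible ligand of LFA-1 and Mac-1, spread widely inside every group. TUMOUR STD samples held 4.34, 5.37, 10, 3.88 and 8.16 CPM. CHEMO STD samples ran from 2.23 to 9.64 CPM with a median of 4.85, and CHEMO FO samples from 2.86 to 11.1 CPM with a median of 3.94. The groups overlapped almost fully, and the libraries that stand apart were near the top of each: TUMOUR STD 10, CHEMO STD 7 and CHEMO FO 18, with CHEMO FO 13 above the last of these. Log2 fold changes were -0.21 ± 0.385 for chemotherapy, 0.07 ± 0.355 for diet and -0.14 ± 0.364 for CHEMO FO versus TUMOUR STD, with adjusted p of 0.893, 0.996 and 0.928 in edgeR. The intervals, the widest being -1.01 to 0.58, do not exclude differences above 1.5-fold.

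Icam2, the constitutive endothelial ligand of LFA-1, was steadier. TUMOUR STD samples held 8.74 to 14 CPM, CHEMO STD samples 6.68 to 14 and CHEMO FO samples 6.68 to 15.4, with means of 10.7 ± 2.01 (SD, n = 5), 9.82 ± 2.6 (n = 6) and 10.2 ± 2.88 (n = 8). The log2 fold changes lay between -0.09 and 0.00, and every interval stayed inside -0.53 to 0.44, that is within 1.5-fold in each direction. The highest values fell in TUMOUR STD 10 and CHEMO FO 16, the libraries with skin genes, and in the summed sample CHEMO STD 1+2.

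**Figure D3:**
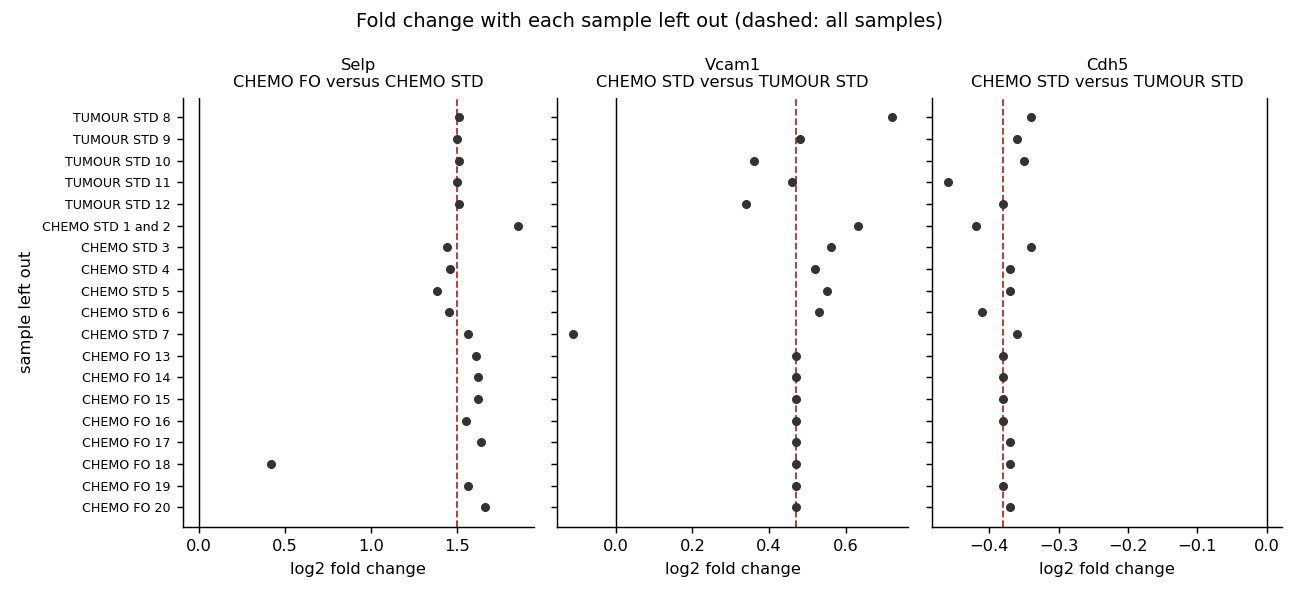
Log2 fold change (horizontal axes, scaled separately) of Selp for the diet effect and of Vcam1 and Cdh5 for the chemotherapy effect, refitted with each sample left out in turn (vertical axis); the dashed line is the value with all samples and the solid line is 0. Selp drops to 0.42 without CHEMO FO 18 and Vcam1 to -0.11 without CHEMO STD 7, whereas Cdh5 stays between -0.46 and -0.34 whichever sample is left out.

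Cdh5, the VE-cadherin of the adherens junctions between endothelial cells, had the only unadjusted p below 0.05 for the chemotherapy effect among the members. TUMOUR STD samples held 55.8, 54.5, 54.7, 39.3 and 50.6 CPM. CHEMO STD samples ran from 34 to 45.1 CPM with a median of 37.6, and CHEMO FO samples from 25.5 to 55.2 CPM with a median of 38. TUMOUR STD 11 was the single low value of its group, and 4 of 6 CHEMO STD and 4 of 8 CHEMO FO samples lay below it. All 6 CHEMO STD samples and 7 of 8 CHEMO FO samples lay below the TUMOUR STD median, the exception being CHEMO FO 19. CHEMO FO 18, the sample with high Selp, was the lowest of all.

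The Cdh5 log2 fold change was -0.38 ± 0.17 for CHEMO STD versus TUMOUR STD (95% interval -0.73 to -0.03, adjusted p = 0.719 in edgeR) and -0.39 ± 0.159 for CHEMO FO versus TUMOUR STD (-0.72 to -0.06, adjusted p = 0.515 in edgeR). These comparisons share the TUMOUR STD samples. Both lie under the 1.5-fold threshold, so neither was called. Exact two-sided permutations of the labels gave p = 0.013 over 462 arrangements and p = 0.0528 over 1287, beside unadjusted edgeR values of p = 0.0347 and p = 0.0214. For the diet effect the log2 fold change was -0.01 ± 0.154 with an interval from -0.33 to 0.31. With each sample left out in turn the unadjusted edgeR p of the chemotherapy effect stayed below 0.05 in 12 of 19 refits (not without TUMOUR STD 8, 9 or 10 or CHEMO STD 3, 4, 5 or 7, highest 0.0758). That of CHEMO FO versus TUMOUR STD did in 18 of 19 (0.056 without TUMOUR STD 8).

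Of the 22 tested pan-endothelial markers, 18, 16 and 19 had negative log2 fold changes in the 3 comparisons. They had a median log2 fold change of -0.14 for the chemotherapy effect, -0.09 for the diet effect and -0.22 for CHEMO FO versus TUMOUR STD, beside medians of 0.00, -0.01 and 0.00 over all genes. In edgeR 0 of the 22 were called in each comparison, with 2, 1 and 6 at an unadjusted p below 0.05, and DESeq2 and limma voom called 0 as well. When libraries were scaled to their summed pan-endothelial counts in place of TMM, the median of all genes shifted by 0.18 and 0.21 against TUMOUR STD. On that scale Cdh5 stood at -0.20 and -0.19, and neither had an unadjusted p below 0.05 in edgeR.

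None of the 3 tight junction genes had an unadjusted p below 0.05 against TUMOUR STD. Cldn5, the main claudin of endothelium, ran from 13.2 to 20.8 CPM in TUMOUR STD, from 8.9 to 24.8 in CHEMO STD and from 9.89 to 19.7 in CHEMO FO. Within CHEMO STD the values formed a high set (24.8, 21.6 and 21.8 CPM) and a low set (12.9, 12.1 and 8.9), on either side of all TUMOUR STD samples. The log2 fold changes were 0.01 ± 0.226, -0.22 ± 0.206 and -0.21 ± 0.215, with adjusted p of 0.991, 0.974 and 0.783 in edgeR.

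Esam, a junctional adhesion protein of endothelium and platelets, held 13.9 ± 3.02 CPM in TUMOUR STD, 15.1 ± 4.59 in CHEMO STD and 16.1 ± 3.34 in CHEMO FO (SD, n = 5, 6 and 8). The CHEMO FO samples were close together, from 13.7 to 16.1 CPM, except CHEMO FO 18 at 24.1 CPM (265 counts). The log2 fold changes were 0.14 ± 0.202, 0.07 ± 0.182 and 0.21 ± 0.191. Without CHEMO FO 18 the diet value was -0.05 and that of CHEMO FO versus TUMOUR STD was 0.10. All 8 CHEMO FO samples lay above the CHEMO STD median of 13.1 CPM, while CHEMO STD 1+2 and 4 stood at 20.9 and 20.6 CPM, and the exact permutation p was 0.529.

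Jam2, which joins endothelial cells and binds JAM-C and integrin alpha-4, was the second member with a small diet difference. TUMOUR STD samples held 43.3, 31.4, 30.4, 31.4 and 30.9 CPM, where TUMOUR STD 8 stood above 4 nearly equal values. CHEMO STD samples ran from 26.6 to 44.8 CPM with a median of 34.4, and CHEMO FO samples from 23 to 33.5 CPM with a median of 28.3. All 8 CHEMO FO samples lay below the CHEMO STD median, though the groups overlapped. The diet log2 fold change was -0.29 ± 0.137 (95% interval -0.57 to 0.00, adjusted p = 0.974 in edgeR), under the fold threshold and not called. The exact permutation p = 0.0773 over 3003 arrangements stood beside an unadjusted edgeR p = 0.0483, which stayed below 0.05 in 8 of 19 refits with a sample left out and reached 0.151. The other comparisons gave 0.08 ± 0.152 and -0.20 ± 0.143 on the log2 scale.

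Tjp1, the ZO-1 scaffold that ties junction proteins to actin, held 76.6, 88.9, 78.3, 55.3 and 69.6 CPM in TUMOUR STD. CHEMO STD samples ran from 55.1 to 75.7 CPM with a median of 61, and CHEMO FO samples from 50.9 to 76.1 CPM with a median of 58.3. Every chemotherapy sample, 6 of 6 and 8 of 8, lay below the TUMOUR STD median of 76.6 CPM, while TUMOUR STD 11 was as low as they were. The log2 fold changes were -0.24 ± 0.135 (adjusted p = 0.719 in edgeR) and -0.26 ± 0.127 (adjusted p = 0.554) against TUMOUR STD, and -0.01 ± 0.122 for the diet effect. On the pan-endothelial scale the first pair were -0.05 and -0.04.

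**Figure D4:**
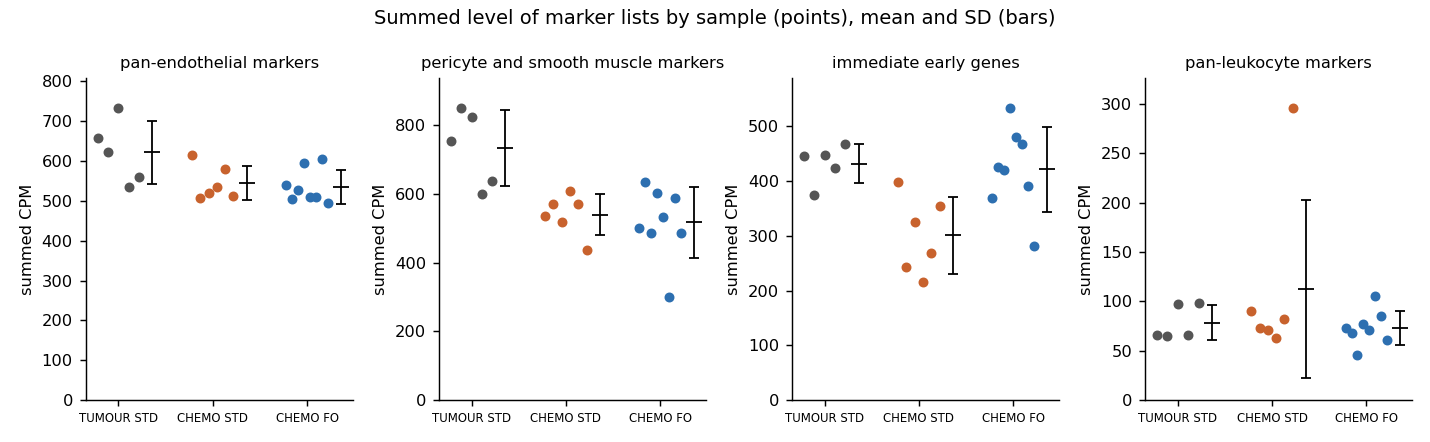
Summed CPM (linear axes from 0) of the pan-endothelial (24 genes), pericyte and smooth muscle (10), immediate early (15) and pan-leukocyte (9) lists by sample (points), with mean and SD per group. Mean pericyte and smooth muscle sums lie lower in both chemotherapy arms. The highest CHEMO STD (608) and CHEMO FO (636) samples still lie above the lowest TUMOUR STD sample (601). The pan-leukocyte sum of 296 in CHEMO STD 7 stands apart.

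The other genes of the same contacts gave few calls. Of 26 further adhesion and junction genes 21 were tested, with 0 called for chemotherapy, 0 for diet and 1, Cldn1, lower in CHEMO FO versus TUMOUR STD. At an unadjusted p below 0.05 in edgeR there were 3, 0 and 5 of them, and the median log2 fold changes were -0.22, -0.02 and -0.21. DESeq2 called 0, 0 and 2, and limma voom 0 in each. Cldn1, a claudin of epithelia such as skin, held 8.2 ± 4.9 CPM in TUMOUR STD and 4.86 ± 1.07 in CHEMO FO (log2 fold change -0.76 ± 0.325, adjusted p = 0.524 in edgeR). Without TUMOUR STD 10 and CHEMO FO 16, the libraries with skin genes, it was -0.35 and not called, and leaving out TUMOUR STD 8 or CHEMO FO 15, or scaling to pan-endothelial counts (-0.49), also ended the call. The most abundant of this list, Ctnnb1, the beta-catenin that binds VE-cadherin, held 239 ± 22.9 CPM in TUMOUR STD, 205 ± 8.23 in CHEMO STD and 201 ± 5.85 in CHEMO FO. Its log2 fold changes were -0.22 ± 0.0942 (adjusted p = 0.719 in edgeR), -0.03 ± 0.0843 and -0.25 ± 0.0883 (adjusted p = 0.486), none of them past 1.5-fold.

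On the leukocyte side, 10 of 12 partner genes were tested and 1 was called, Itgb7, the beta-7 integrin of lymphocytes. It was lower in CHEMO FO than in CHEMO STD (1.1 ± 0.61 against 2.45 ± 2.22 CPM, log2 fold change -1.14 ± 0.492, adjusted p = 0.974 in edgeR). CHEMO STD 7 held 6.88 CPM of it, and without that sample Itgb7 did not pass the filter and was not tested. Itgb1, the most abundant partner, had log2 fold changes between 0.02 and 0.07. Of 8 tested pan-leukocyte markers, 3 were called higher for chemotherapy and 4 lower for diet, including Ptprc (CD45) at 1.16 ± 0.385 and -1.16 ± 0.34 on the log2 scale. Without CHEMO STD 7, none of the 7 then tested was called in either comparison. Red cell markers, of which 5 were tested, had median log2 fold changes of 0.00, -0.79 and -0.74, with all 5 negative for diet and for CHEMO FO versus TUMOUR STD. Of 10 listed red cell genes 8 were found by their symbol. Their summed level was 416 ± 144 CPM in TUMOUR STD, 440 ± 287 in CHEMO STD and 252 ± 336 in CHEMO FO, with 16.2 to 894 CPM within CHEMO FO. In edgeR 0 were called in each comparison, also 0 at an unadjusted p below 0.05, and DESeq2 called 0, whereas limma voom called 5 lower for diet and 4 lower for CHEMO FO versus TUMOUR STD. The part of blood content in the members' values was not tested.

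Few genes of endothelial activation or of venules were called. Of 12 NF-kB-dependent activation genes 8 were tested, and edgeR called 0 in each comparison (0, 1 and 0 at an unadjusted p below 0.05), with median log2 fold changes of -0.02, 0.12 and 0.15. DESeq2 on all samples called 1, in CHEMO FO versus TUMOUR STD, and limma voom called 0. Nfkbia, the feedback inhibitor of NF-kB and the most abundant of them, held 25.2 ± 6.61, 28 ± 11.3 and 32.2 ± 12.1 CPM in TUMOUR STD, CHEMO STD and CHEMO FO. Of 5 tested venular markers only Aplnr, the apelin receptor, was called, lower in CHEMO FO versus TUMOUR STD (9.45 ± 3.81 against 15.8 ± 3.08 CPM, log2 fold change -0.77 ± 0.233, adjusted p = 0.486 in edgeR). Scaled to pan-endothelial counts it was -0.55 and no longer called. Vwf, which is stored with P-selectin in endothelial granules, held 58.2 ± 20.7, 45.6 ± 20.6 and 44.2 ± 11.6 CPM and was not called.

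Markers of the cells that wrap the vessels gave more calls. Of 9 tested pericyte and smooth muscle markers, 5 were called lower for the chemotherapy effect and 3 for CHEMO FO versus TUMOUR STD, and 0 for diet, with median log2 fold changes of -0.74, -0.52 and 0.12. Myh11, smooth muscle myosin, held 95.2 ± 25.7 CPM in TUMOUR STD, 50 ± 12.3 in CHEMO STD and 50.6 ± 14.5 in CHEMO FO. Its log2 fold changes were -0.93 ± 0.217 (adjusted p = 0.719 in edgeR) and -0.91 ± 0.201 (adjusted p = 0.433) against TUMOUR STD. Acta2, smooth muscle actin, held 23.6 ± 8.99, 10.7 ± 4.83 and 12.9 ± 3.25 CPM in the same order, at -1.11 ± 0.277 and -0.89 ± 0.258 on the log2 scale. The calls of Myh11 and Acta2 held in all 19 refits with a sample left out and without the 4 libraries that stand apart. The list counts were 3 and 3 without TUMOUR STD 10, where Cspg4 (-0.52 for chemotherapy) was no longer called. They were 5 and 2 without CHEMO FO 18, and 3 and 2 without the 4 libraries. Scaled to pan-endothelial counts they were 2 and 2, where Tagln (-0.57 and -0.42) and Cspg4 (-0.56) were no longer called and Myh11 and Acta2 still were. The most abundant of the list, Abcc9, was not called. The summed level of the 10 markers was 734 ± 111 CPM in TUMOUR STD, 540 ± 59.4 in CHEMO STD and 517 ± 105 in CHEMO FO, and its part in the Cdh5 values was not tested.

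Prox1, the transcription factor of lymphatic endothelium, was lower in both chemotherapy arms: 11.7 ± 2.65 CPM in TUMOUR STD, 6.36 ± 1.35 in CHEMO STD and 7.67 ± 2.53 in CHEMO FO. The log2 fold changes were -0.88 ± 0.235 (adjusted p = 0.719 in edgeR) and -0.65 ± 0.218 (adjusted p = 0.486). The second of these calls was lost without TUMOUR STD 9, CHEMO FO 17 or CHEMO FO 18, and when scaled to pan-endothelial counts (-0.42). Prox1 went against most of its list for the chemotherapy effect, where 5 of the 7 lymphatic markers had positive log2 fold changes, the median was 0.24 and no other was called. Prox1 is also expressed in muscle fibres, and of the 7 lymphatic markers the others called, Pdpn (1.09 ± 0.478) and Lyve1 (0.85 ± 0.379), were higher in CHEMO FO than in TUMOUR STD. Both of those calls were lost without CHEMO FO 18, at 0.14 and 0.27, and also without TUMOUR STD 9 or 11, Pdpn without TUMOUR STD 8 and Lyve1 without TUMOUR STD 10 or 12.

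Immediate early genes, which respond within minutes to many stimuli, were called in opposite directions for chemotherapy and diet. Of 12 tested, 3 were called lower for chemotherapy (Fos, Dusp1 and Egr1) and 3 higher for diet, with medians of -0.35 and 0.44 on the log2 scale, in comparisons that share the CHEMO STD samples. Fos held 20.4 ± 6.25, 9.9 ± 3.27 and 23.1 ± 10.3 CPM in TUMOUR STD, CHEMO STD and CHEMO FO, and its calls held in all 19 refits. The diet count was 1 without CHEMO FO 18 and 6 without CHEMO STD 7. The most abundant of the list, Jun, stood at -0.49 ± 0.172 and 0.41 ± 0.155 and was not called. The Dusp1 call for diet (0.59 ± 0.195) held in 11 of 19 refits. In CHEMO FO versus TUMOUR STD 1 gene was called, Myc, which was higher (1.31 ± 0.443, adjusted p = 0.486 in edgeR). Its call held in all 19 refits, with 0.69 as the lowest value. Myc was also positive for chemotherapy (0.66 ± 0.468) and for diet (0.65 ± 0.403), without a call.

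**Figure D5:**
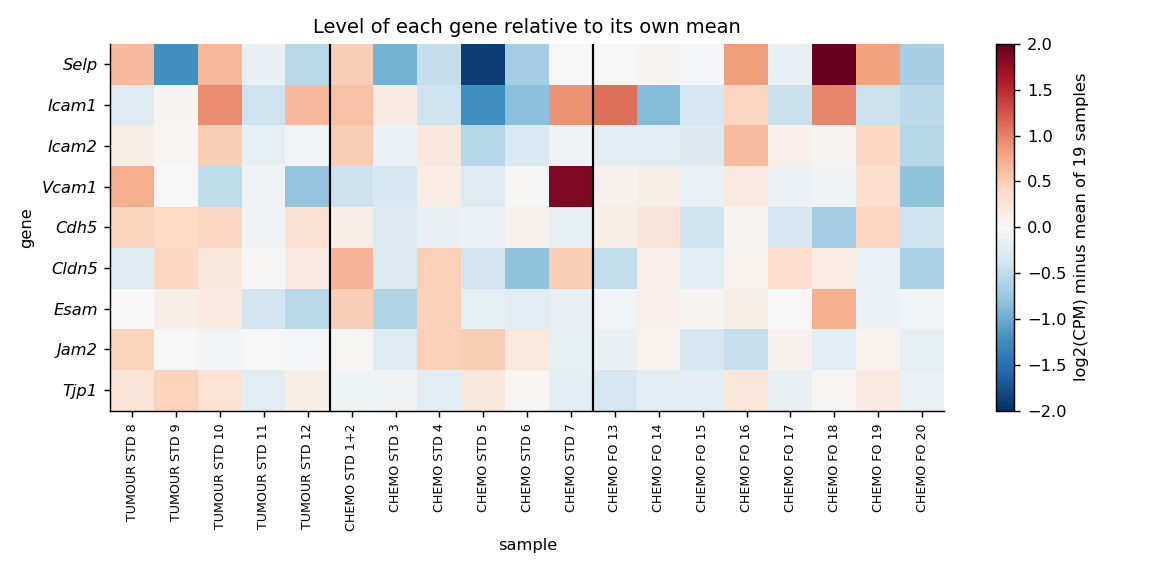
Log2 CPM of each gene minus its mean over the 19 samples (colour, limited to 2 either way, so that Selp in CHEMO FO 18 is beyond the scale), with genes in rows and samples in columns, vertical lines between the groups. The strongest high cells are Selp in CHEMO FO 18 and Vcam1 in CHEMO STD 7. The strongest low cell is Selp in CHEMO STD 5 (0.636 CPM, 2 counts). No column is above the mean for all 9 genes, whereas CHEMO FO 20 is below it for all 9, some of them only slightly.

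The members varied largely apart from each other within the groups. Over the 36 pairs of members, Pearson r of group-centred log2 CPM across the 19 samples ran from -0.62 to 0.61 with a median of 0.16, and 25 were positive. All values of a sample share its library size, which links them. Icam2 and Cldn5 had the highest r (r = 0.61, permutation p = 0.0102, rho = 0.67, permutation p = 0.00476), and 0.56 without the 2 samples farthest from the Icam2 median. Icam1 and Jam2 had the lowest (r = -0.62, permutation p = 0.0117, rho = -0.60, permutation p = 0.0145), and -0.63 without the 2 samples farthest from the Icam1 median. Selp and Icam2 had r = 0.53 (permutation p = 0.033) and rho = 0.70 (permutation p = 0.0016). Adjusted over the 36 pairs, the smallest p was 0.142 for Pearson r and 0.0576 for Spearman rho, so none passed 0.05.

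Outside the set, the genes whose group-centred levels were most like Selp were Pnp (r = 0.91), Lgmn (0.90), Sqor (0.89), Fgl2 (0.89) and Tubb6 (0.86), out of 11706 genes with a mean of at least 1 CPM over the 19 samples. All 5 were high in CHEMO FO 18, Lgmn at 246 CPM against a median of 35.4 in the other CHEMO FO samples and Tubb6 at 210 against 16.7, and without that sample r was 0.88, 0.77, 0.73, 0.73 and 0.67. The mean of the standardised values of the other 8 members was most like Irs2 (r = 0.82), Rubcn (0.82), Slit2 (0.80), Csf2ra (0.78) and Dalrd3 (0.78), and these stood between 0.78 and 0.82 without CHEMO FO 18. These are the top of a ranking over many genes and carry no test.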

How the data were processed

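The authors extracted total RNA from gastrocnemius muscle, made rRNA-depleted stranded libraries, trimmed paired reads with Trim Galore 0.4.1, aligned them to the rat genome (Rnor 6) with TopHat2 2.0.10 and Bowtie2, and deposited raw integer counts per gene, not normalised. How reads were counted, and whether by strand, was not given in the sources used here. Overlapping or antisense genes could therefore share reads. Rows without a gene name (388, 0.102% to 0.272% of a library's counts) were left out.

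From these counts, genes were filtered with filterByExpr (minimum count 10, minimum total 15), scaled by TMM and fitted in edgeR 4.0.16 (R 4.3.3) over all 3 groups, with the quasi-likelihood test and no covariate. Calls used an unadjusted p below 0.05 and 1.5-fold, the study's thresholds, with Benjamini-Hochberg adjustment over all genes beside them. SE is the log2 fold change divided by the square root of F. Permutation tests used log2 CPM with a prior count of 2, exact for single genes and with 100000 resamples within groups for correlations. Binomial intervals are Clopper-Pearson, at 95%, on TMM library sizes, and cover counting error only. CHEMO STD 1 and 2 were summed for the likeness given above and because their library names differ by 1 letter. Samples are labelled as separate but not tied to animals one by one, so p-values measure the spread between samples.

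Alternatives were DESeq2 1.42.0, limma 3.58.1 voom, other scalings, filters and thresholds, only the 2 conditions in the fit, CHEMO STD 1 and 2 kept separate, and each sample left out. The pipeline was tested on simulated data. Named genes were all members, from each list the called genes (at most 4 by smallest p) and the most abundant one, and the 5 genes most like Selp or the other members. Genes of the lists shown for CHEMO FO 18 and CHEMO STD 7, and the 2 settings without libraries that stand apart, were chosen after their values were seen. The members, lists and motifs were chosen with earlier results of these data known. Lists were described by counts and medians, with no set test. Figures were drawn with matplotlib.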

Additional observations from a re-analysis of the deposited data

Results flagged for a closer look

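In each group the highest or lowest sample of each of the 9 members was compared with Dixon's 95% critical value, over 27 gene and group combinations, of which chance marks about 1 in 20. The test marked 4 values, all of them the highest of their group. Selp in CHEMO FO 18 stood at 22.8 CPM, with a gap to the next sample of 0.873 of the group's range. Esam in the same sample stood at 24.1 CPM (gap 0.772 of the range). Vcam1 in CHEMO STD 7 stood at 11 CPM (gap 0.875 of the range). Jam2 in TUMOUR STD 8 stood at 43.3 CPM (gap 0.92 of the range), and without that sample the Jam2 log2 fold change of CHEMO FO versus TUMOUR STD was -0.08.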

How the results depend on the processing

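No paired analysis was possible because the groups share no replicate numbers. A fold change was taken to turn only where its sign differed at 2 decimals. Of the single fold changes recomputed, 752 kept direction and call, 19 lost a call (all Selp) and 39 turned, all of values that were not called. These leave aside the settings without the skin-gene libraries and without the 4 libraries, chosen after seeing the data, where 42 kept, 2 lost a call (Selp) and 10 turned. The cause of each change was not tested.

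Members called: with p below 0.05 alone 1 for chemotherapy, 2 for diet and 2 for CHEMO FO versus TUMOUR STD. DESeq2 on only the 2 conditions, limma voom and leaving out the 4 libraries that stand apart gave 0 for diet and 0 for CHEMO FO versus TUMOUR STD, where a mean of 10 counts and a fit of only the 2 conditions also gave 0. With each sample left out the count was 0 for chemotherapy and 0 to 1 in the other comparisons, 0 for diet only without CHEMO FO 18.

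Genes called (279, 195 and 422): 762, 528 and 1059 with p below 0.05 alone, 65, 58 and 112 at 2-fold, 971, 722 and 1116 with no filter. DESeq2 gave 422 for chemotherapy on only the 2 conditions and 314 for diet on all samples. For chemotherapy there were 170 genes without the skin-gene libraries, 175 without the 4 libraries, and 161 (without TUMOUR STD 10) to 603 (without CHEMO STD 1 and 2) with each sample left out, where TUMOUR STD 8 (530) and 11 (450) also mattered. The ranges were 153 to 266 for diet and 273 (without CHEMO FO 18) to 584 for CHEMO FO versus TUMOUR STD, 241 without the 4 libraries.

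Turned values, chemotherapy: scaled to pan-endothelial counts Icam2 0.10, without the skin-gene libraries Icam1 0.02 and Icam2 0.04, without the 4 libraries Icam2 0.07, Vcam1 -0.21 and Cldn5 -0.02, and Cldn5 -0.09 by limma voom and by log2 CPM means. Diet: limma voom Icam1 -0.06 and Cdh5 0.06, pan-endothelial scaling Cdh5 0.01 and Tjp1 0.01, without the 4 libraries Icam1 -0.02, Vcam1 0.08, Cdh5 0.02 and Esam -0.11. CHEMO FO versus TUMOUR STD: pan-endothelial scaling Icam1 0.10, Icam2 0.13 and Jam2 0.01, without the skin-gene libraries Icam1 0.06.

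With each sample left out, values that turned ranged, for chemotherapy, from -0.43 to 0.02 (Icam1), -0.22 to 0.03 (Icam2), -0.11 to 0.72 (Vcam1) and -0.13 to 0.14 (Cldn5). For diet they ranged from -0.15 to 0.29 (Icam1), -0.62 to 0.10 (Vcam1, from -0.56 where CHEMO STD 1 and 2 stayed in), -0.10 to 0.06 (Cdh5), -0.05 to 0.20 (Esam, to 0.18 where they stayed in) and -0.06 to 0.05 (Tjp1). For CHEMO FO versus TUMOUR STD they ranged from -0.35 to 0.09 (Icam1) and -0.18 to 0.03 (Icam2).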
